A study of Rattus norvegicus with 38 samples.

Results

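Il1r2 and Il1rap encode the interleukin 1 decoy receptor and the interleukin 1 co-receptor, and their RNA was measured in blood leukocytes of rats given acetaminophen (AP) or methyl parathion (MP). Each gene was read by the 1 probe whose annotation gives its symbol alone, probe 22027162 for Il1r2 and probe 20739578 for Il1rap. These are 2 of 26857 gene probes on the array, of which 6104 had exactly 1 symbol and 12805 were bright enough to be tested. Where within a transcript a probe lies is not given in the sources used here, so that membrane-bound and soluble forms were not told apart.

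Leukocytes signal to interleukin 1 through Il1r1, the signalling receptor, which binds the cytokine and then recruits the co-receptor Il1rap, and the pair passes the signal on through the adaptor Myd88. Il1r2 binds the cytokine too but lacks the signalling part inside the cell, and it can also take up the co-receptor, so that it works as a decoy. In human blood it is known from neutrophils and monocytes and is induced by glucocorticoids. Il1rap is shared with the receptors of interleukin 33 and interleukin 36.

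The rats were male CDF Fisher 344, about 4 months old, and each received 1 intraperitoneal injection. AP, a drug that harms the liver in overdose, was given at 1200 mg/kg, and MP, an insecticide that blocks acetylcholinesterase, at 15 mg/kg, both in vegetable oil. For each chemical the blood of 4 rats was taken at each of 4, 12 and 24 h and of 3 rats at 168 h after dosing, and each chemical had 4 vehicle rats of its own that received the oil alone. The oil-dosed rats were all sampled 24 h after dosing, and only the 24 h groups share that hour with them. Cells were caught on a leukocyte filter, their RNA was depleted of globin RNA, and each of the 38 rats had 1 array.

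The median unnormalized signal was between 176.6 and 389.6 over the arrays, and between 36.4% and 51.7% of gene probes had a signal-to-noise ratio of at least 3. All 7 neutrophil, 6 T cell and 5 monocyte markers with a probe passed this detection limit in at least 1 group. Several rats of the MP series stood apart from their groups in the values that follow. Rat 2 of the MP 12 h group lay below its group in both genes. In Il1r2 rat 4 of the MP 4 h group, rat 4 of the MP 24 h group and rat 4 of the MP vehicle group each lay above the rest of their group. Levels below are log2 normalized signals, and levels of different probes are not set against each other.

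Il1r2 was raised at the first time studied after AP and went on to one of the largest rises on the array. At 4 h the 4 AP rats had log2 signals of 14.12, 16.40, 15.25 and 15.82, against 12.75, 12.45, 12.89 and 12.67 in their vehicle rats. No AP rat overlapped the vehicle rats, and rat 1 was the lowest of the AP rats. The means were 15.40 ± 0.97 at 4 h after AP and 12.69 ± 0.18 in AP vehicle rats (SD, n = 4 each). This was a rise of 2.71 ± 0.525 on the log2 scale (SE), or 6.53-fold, with a limma adjusted p of 0.00237, and only 1 tested probe rose more. In this comparison 2.9% of the 12805 tested probes rose and 3.68% fell, and 4.05% had all AP rats above all vehicle rats. The call was lost where only these 2 groups entered the fit, with a limma adjusted p of 0.0794.

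At 12 h Il1r2 had signals of 17.74, 17.74, 17.90 and 17.61 in the AP rats, all within 1 narrow band. The rise over the AP vehicle rats was 5.06 (33.3-fold, limma adjusted p = 3.46e-09), where 13.8% of probes rose and 20.5% fell. At 24 h the AP rats had 19.32, 19.40, 18.38 and 19.02, and the rise was 6.34 (81-fold, limma adjusted p = 1.5e-11), where 14.7% of probes rose and 20.9% fell. These were the 6th and the 10th largest rises of the 12805 tested probes. The step of 2.35 from 12 h over 4 h passed the test (limma adjusted p = 0.000796), with 12.7% of probes higher. The step of 1.28 from 24 h over 12 h did not (limma adjusted p = 0.157), although all 24 h rats lay above all 12 h rats, as held for 7.85% of probes.

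At 168 h Il1r2 was at 13.70, 13.54 and 14.30 in the AP rats, and the step from 24 h passed the test (-5.19 ± 0.567, limma adjusted p = 6.14e-09), where 19.3% of probes fell. All 3 rats still lay above all 4 AP vehicle rats, as did 9.67% of tested probes. The difference of 1.15 ± 0.567 from vehicle did not pass the threshold over all probes (limma adjusted p = 0.174, with a 95% interval of 0.00 to 2.30), where 3.08% of probes rose. It passed with a limma adjusted p of 0.01 where only these 2 groups were fitted.

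**Figure D1:**
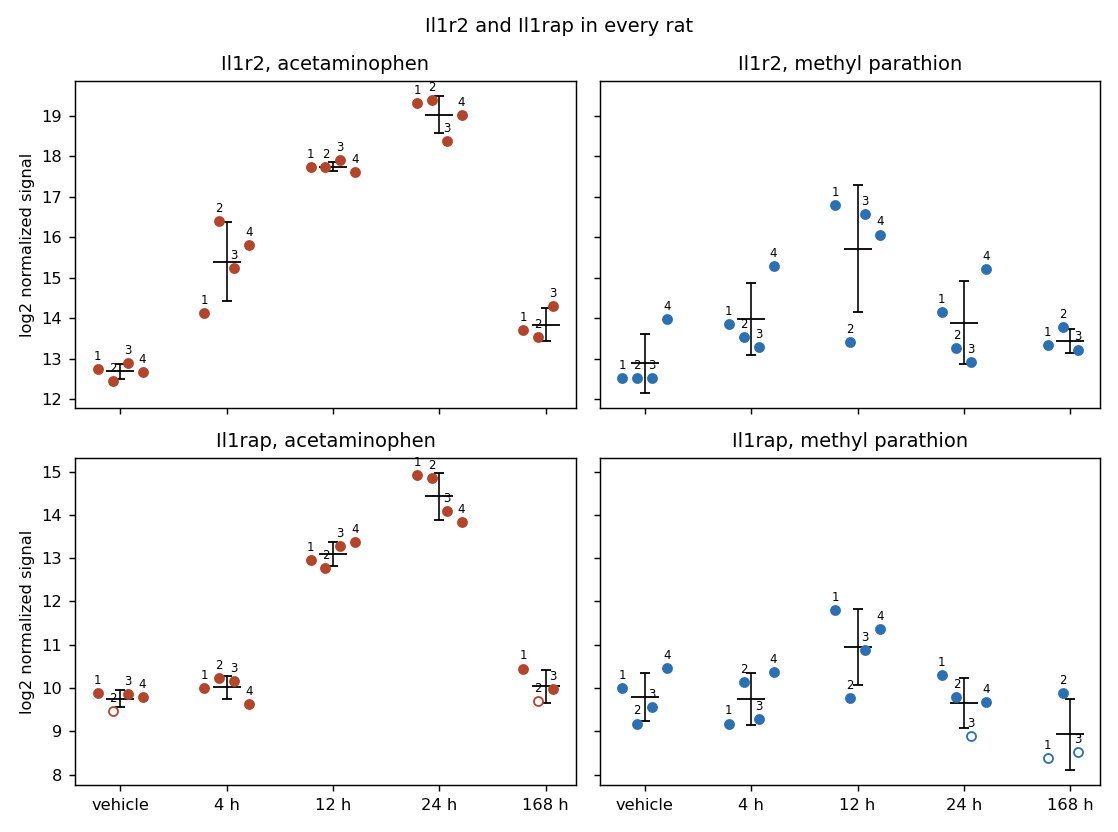
Log2 normalized signal of Il1r2 (upper panels) and Il1rap (lower panels) in every rat, by time after acetaminophen (left) or methyl parathion (right), with each chemical's vehicle rats at the left of its panel. Points are numbered by rat, open points have a signal-to-noise ratio under 3, and bars show the mean ± SD. Il1r2 after AP lies higher at 12 h and 24 h than at 4 h. Il1rap at 4 h overlaps its vehicle rats, with 3 of the 4 AP rats above all of them. Both genes have their highest MP values at 12 h, where rat 2 lies apart.

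Il1rap did not pass the test at the first time after AP. At 4 h the AP rats had log2 signals of 10.01, 10.23, 10.17 and 9.64, against 9.89, 9.47, 9.86 and 9.79 in AP vehicle rats. Of the 4 AP rats 3 lay above all vehicle rats, and rat 4 lay among them. The groups thus overlapped, with means of 10.01 ± 0.27 at 4 h after AP and 9.75 ± 0.19 in AP vehicle rats (SD, n = 4 each). The difference of 0.26 ± 0.370 gave a limma adjusted p of 0.718, and its 95% interval ran from -0.49 to 1.02.

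At 12 h the co-receptor was at 12.96, 12.77, 13.28 and 13.38 in the AP rats, and at 24 h at 14.91, 14.86, 14.09 and 13.84. Every rat of both times lay above every vehicle rat, as held for 16.2% of probes at 12 h and 15.6% at 24 h. The rises were 3.35 (10.2-fold, limma adjusted p = 1.02e-08) and 4.68 (25.6-fold, limma adjusted p = 5.58e-12), the 57th and the 31st largest on the array. The step of 3.08 from 12 h over 4 h passed the test (limma adjusted p = 8.74e-08). The step of 1.33 from 24 h over 12 h passed as well (limma adjusted p = 0.0211), where 3.47% of probes rose, but not without rat 1 or rat 2 of the 12 h group or rat 1 or rat 2 of the 24 h group, where it was 1.17 to 1.28.

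At 168 h Il1rap was at 10.45, 9.70 and 9.98 in the AP rats, a step of -4.38 from the 24 h rats (limma adjusted p = 1.7e-10). It overlapped the AP vehicle rats again, with a difference of 0.29 ± 0.400 (limma adjusted p = 0.666, 95% interval -0.52 to 1.10). In the 168 h rats 2 of 3 arrays and in the AP vehicle rats 3 of 4 arrays reached the detection limit for Il1rap, while Il1r2 reached it on all 38 arrays, with signal-to-noise ratios of 23.7 to 115.

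The promoter table of RefSeq (build GRCr8) held 1 of the 2 genes, Il1rap, with 2 start sites. The 250 bases before the outer start site, chr11:87704343-87704592 on the minus strand, are shown because the gene changed after both chemicals. They are printed in the direction of transcription, and capitals mark GC boxes, the Sp1 motif GGGCGG or its reverse complement.
Il1rap promoter: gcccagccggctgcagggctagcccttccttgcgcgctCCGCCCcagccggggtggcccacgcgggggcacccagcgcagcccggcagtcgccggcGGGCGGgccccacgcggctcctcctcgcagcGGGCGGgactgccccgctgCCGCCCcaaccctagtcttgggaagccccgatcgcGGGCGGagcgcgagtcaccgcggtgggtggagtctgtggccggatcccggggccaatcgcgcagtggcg
The window held 5 GC boxes and was 78.4% G or C, against a median of 51.2% over the 33469 promoters of the table. At least 1 GC box stood in 30.5% of these promoters. On either strand the Il1rap window held no PU.1 core GAGGAA (in 23.3% of promoters), no C/EBP motif TTGCNNAA (9.22%) and no glucocorticoid receptor core AGAACA (17.5%). These are matches of letters and show no binding, and other stretches of the gene were not searched.

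After MP both genes passed the test at 12 h alone. Il1r2 was at 16.81, 13.41, 16.58 and 16.07 in the MP 12 h rats, against 12.52, 12.53, 12.52 and 13.99 in MP vehicle rats. Rats 1, 3 and 4 lay above all vehicle rats, while rat 2 lay below vehicle rat 4. The means were 15.72 ± 1.57 at 12 h after MP and 12.89 ± 0.73 in MP vehicle rats (SD, n = 4 each). The rise of 2.83 (7.11-fold) had a limma adjusted p of 0.00221 and was the 5th largest on the array, where 3.12% of probes rose and 4.92% fell. It was 3.60 without rat 2 of the 12 h group and 3.20 without vehicle rat 4. It did not pass where only these 2 groups were fitted (limma adjusted p = 0.0635), nor in an exact permutation test of the 2 groups (p = 0.0571).

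Il1rap was at 11.79, 9.76, 10.87 and 11.37 in the MP 12 h rats, against 10.00, 9.18, 9.55 and 10.46 in MP vehicle rats. Rat 2 again was the lowest of its group and lay among the vehicle rats, and the other three lay above them. The rise of 1.15 (2.22-fold) passed narrowly, with a limma adjusted p of 0.0479, and was the 204th largest. The call was lost without any 1 of vehicle rats 1, 2 and 3 or of 12 h rats 1, 3 and 4, with limma adjusted p of 0.0857 to 0.22. Without rat 2 of the 12 h group the rise was 1.55 (limma adjusted p = 0.00332).

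At the other times after MP neither gene passed the test. Il1r2 at 4 h was at 13.85, 13.53, 13.29 and 15.28 in the MP rats, 1.10 over MP vehicle rats (limma adjusted p = 0.45, 95% interval 0.03 to 2.17). No probe of the array passed at that time (0% called), while 1371 had an unadjusted p under 0.05. At 24 h Il1r2 was at 14.15, 13.27, 12.92 and 15.21 in the MP rats, a difference of 1.0 (limma adjusted p = 0.328, 95% interval -0.07 to 2.07), where 2.38% of probes were called. At 168 h it was at 13.33, 13.78 and 13.23, a difference of 0.56 (limma adjusted p = 0.518, 95% interval -0.59 to 1.71), where 18.2% of probes were called. Without its rat 4 the difference was 0.67 at 4 h (limma adjusted p = 0.695) and 0.56 at 24 h (limma adjusted p = 0.768). In each of these 3 groups 1 rat or more lay below vehicle rat 4, the highest MP vehicle rat.

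Il1rap was at 9.18, 10.13, 9.29 and 10.38 in the MP rats at 4 h and at 10.29, 9.79, 8.89 and 9.67 at 24 h. The differences from MP vehicle rats were -0.05 (limma adjusted p = 0.98, 95% interval -0.80 to 0.70) and -0.14 (limma adjusted p = 0.902, 95% interval -0.89 to 0.62). At 168 h it was at 8.39, 9.88 and 8.52, and 1 of the 3 arrays reached the detection limit. Rats 1 and 3 lay below all MP vehicle rats and rat 2 among them. The difference of -0.87 ± 0.400 had a limma adjusted p of 0.124, and without rat 2 it was -1.34 (limma adjusted p = 0.0403).

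Against the neighbouring times the 12 h values after MP did not pass with all rats. Il1r2 at 12 h was 1.73 over 4 h (limma adjusted p = 0.0709), and the step from 12 h to 24 h was -1.83 (limma adjusted p = 0.0771). Without rat 2 of the 12 h group the steps were 2.50 (limma adjusted p = 0.00101) and -2.60 (limma adjusted p = 0.00204). They also passed without rat 4 of the 4 h group (2.16) and without rat 1 (-1.92) or rat 4 (-2.27) of the 24 h group. For Il1rap the steps were 1.20 (limma adjusted p = 0.0729) and -1.29 (limma adjusted p = 0.0772). Without rat 2 of the 12 h group they were 1.60 (limma adjusted p = 0.00482) and -1.68 (limma adjusted p = 0.00762), and the second was -1.50 without rat 1 of the 24 h group (limma adjusted p = 0.0167). Over all rats 1.29% of probes were called for 12 h over 4 h and 0.718% for 24 h over 12 h.

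**Figure D2:**
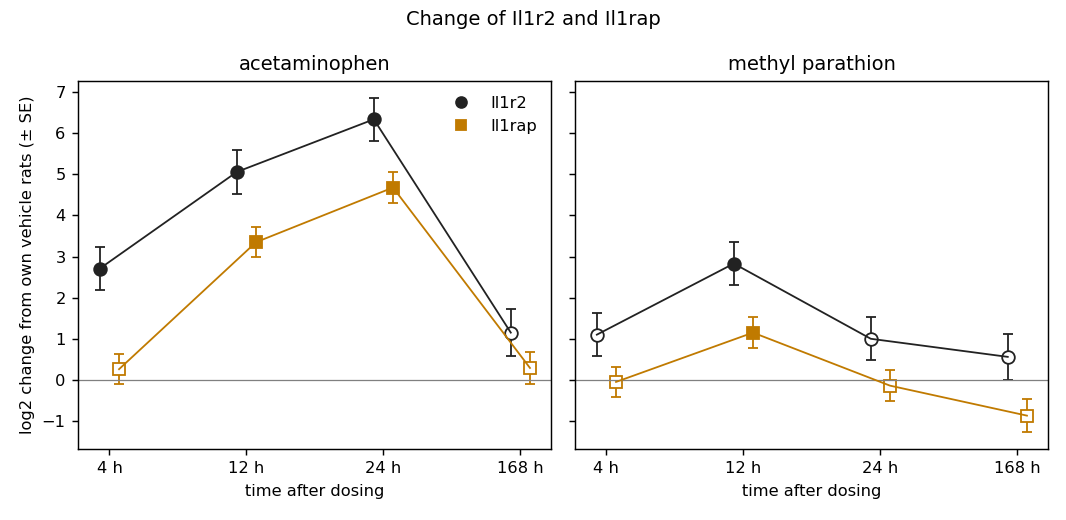
Log2 change of Il1r2 (circles) and Il1rap (squares) from the vehicle rats of the same chemical, ± SE of the limma fit, at 4, 12, 24 and 168 h (times equally spaced). Filled points passed a limma adjusted p of 0.05. After AP the highest changes are at 24 h, 6.34 for Il1r2 and 4.68 for Il1rap, and after MP at 12 h, 2.83 and 1.15.

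The 2 chemicals were then compared by the change under AP minus the change under MP at the same time. The vehicle groups differed by -0.20 in Il1r2 (limma adjusted p = 0.946) and by -0.05 in Il1rap (limma adjusted p = 0.986), AP minus MP. Of all probes 0% were called between the vehicle groups and 1378 had an unadjusted p under 0.05.

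The change of Il1r2 was larger after AP by 5.34 at 24 h (limma adjusted p = 2.44e-06) and that of Il1rap by 4.81 (limma adjusted p = 3.62e-08), where 11.9% of probes had a higher change. At 12 h the change of Il1rap was larger after AP by 2.20 (limma adjusted p = 0.00603), where 6.04% of probes had a higher change. That of Il1r2 was larger by 2.23 at 12 h (limma adjusted p = 0.0461), but this call held without 1 rat only where that rat was MP vehicle rat 1 or 3 or MP 12 h rat 1 or 3. Without MP 12 h rat 2 it was 1.46 (limma adjusted p = 0.144).

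At 4 h the change of Il1r2 after AP exceeded that after MP by 1.61 ± 0.742 (limma adjusted p = 0.314), so that the call after AP and its absence after MP are not shown to differ. Il1rap differed by 0.32 ± 0.523 at 4 h (limma adjusted p = 0.833). At that time 0% of probes were called and 1879 had an unadjusted p under 0.05. At 168 h the differences were 0.59 ± 0.801 for Il1r2 (limma adjusted p = 0.714) and 1.16 ± 0.565 for Il1rap (limma adjusted p = 0.232), where 3.4% of probes were called.

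The counts of called probes behind the shares given beside the 2 genes moved with single rats. Leaving out 1 rat gave 179 (without 4 h rat 3) to 1624 (without 4 h rat 1) in place of 842 at 4 h and 390 (without 168 h rat 2) to 1243 (without 168 h rat 1) in place of 1421 at 168 h after AP. After MP it gave 253 (without 12 h rat 1) to 1909 (without 12 h rat 2) in place of 1029 at 12 h, 17 (without 24 h rat 4) to 872 (without 24 h rat 1) in place of 305 at 24 h, and 1286 (without 168 h rat 2) to 2035 in place of 2334 at 168 h. For 12 h over 4 h after MP it gave 1 (without 12 h rat 1, 3 or 4 or 4 h rat 1 or 3) to 1150 (without 12 h rat 2) in place of 165, and for 24 h over 12 h 1 (without 12 h rat 4 or 24 h rat 3) to 1119 (without 24 h rat 1) in place of 92. For the differences between chemicals it gave 0 to 350 (without AP 4 h rat 1) in place of 0 at 4 h, 966 (without AP vehicle rat 4) to 1833 in place of 1463 at 12 h, and 0 (without MP vehicle rat 4) to 912 (without MP 168 h rat 1) in place of 435 at 168 h. For 24 h over 12 h after AP it gave 594 (without 24 h rat 1) to 943 in place of 891.

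Ordered by mean, Il1r2 was highest at 24 h after AP, then at 12 h after AP, 12 h after MP, 4 h after AP, 4 h after MP, 24 h after MP, 168 h after AP, 168 h after MP, and in MP and AP vehicle rats. Il1rap followed the same order for its first 3 groups. Below them came 168 h and 4 h after AP, MP and AP vehicle rats, and 4 h, 24 h and 168 h after MP. In both orders the 24 h and 12 h AP groups did not overlap, as 7.85% of probes had all 24 h rats above all 12 h rats. The 12 h AP and 12 h MP groups did not overlap either, and the share of probes with this was not computed. All lower neighbours overlapped.

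The 2 genes changed by unequal amounts on the same arrays. A factor shared by all probes of an array cancels in the log2 difference of Il1r2 minus Il1rap, but quantile normalization can shift bright and dim probes of an array by different amounts. The difference was 4.12 to 6.18 in the 4 h AP rats, 4.23 to 4.97 at 12 h, 4.29 to 5.17 at 24 h and 3.24 to 4.32 at 168 h, against 2.86 to 3.03 in AP vehicle rats. No treated AP rat overlapped these vehicle rats. How many other pairs of probes part in this way, after AP or MP, was not computed, so this is not shown to be particular to the 2 genes. The MP vehicle rats, also given oil alone, had a wider span of 2.51 to 3.53, and rat 1 of the 168 h AP group lay within it at 3.24. The excess over the AP vehicle rats was 2.44 at 4 h, 1.71 at 12 h, 1.66 at 24 h and 0.86 at 168 h. Each had an exact two-sided permutation p of 0.0286, the smallest these groups allow, and an adjusted p of 0.0381 over 8 comparisons.

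After MP the within-array difference was 3.65 to 5.71 at 12 h and 3.90 to 4.94 at 168 h, against 2.51 to 3.53 in MP vehicle rats. The excess was 1.68 at 12 h and 1.43 at 168 h, with the same exact permutation p of 0.0286 and adjusted p of 0.0381. The value at 168 h rests on Il1rap signals under the detection limit in 2 of the 3 rats, with signal-to-noise ratios of 2.66 and 1.88, and neither gene alone passed at that time. At 4 h it was 1.15 and at 24 h 1.14, where 1 MP rat or more overlapped the vehicle rats (exact permutation p = 0.0571 at both times, adjusted p = 0.0571). On signals without normalization the excess was 1.24 at both of these times, with an exact permutation p of 0.0286. The comparisons of a chemical share its vehicle rats and are not independent. Il1rap was the dimmer probe against its noise, with some arrays under the detection limit in 4 groups, and the part of this in the unequal changes was not tested.

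**Figure D3:**
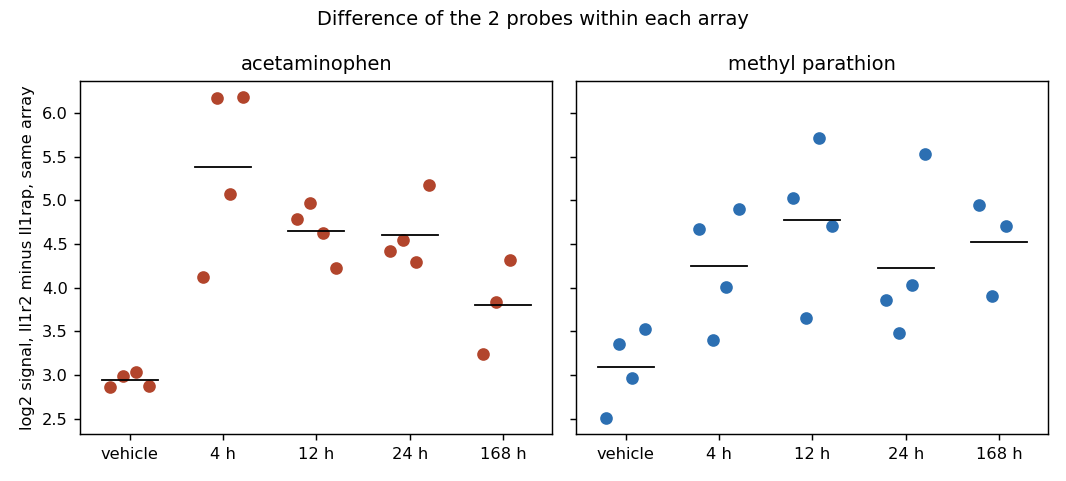
Log2 signal of Il1r2 minus Il1rap on the same array, 1 point per rat, with group means as lines, for acetaminophen (left) and methyl parathion (right), vehicle rats at the left of each panel. All treated AP rats lie above the AP vehicle rats, which span 2.86 to 3.03. The MP 12 h and 168 h rats lie above the MP vehicle rats, which reach 3.53.

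Among rats of the same group, those with more Il1r2 tended to have more Il1rap. Over the 38 arrays the deviations of the 2 genes from their group means correlated with a Pearson r of 0.62 (permutation p = 0.0018) and a Spearman rho of 0.54 (permutation p = 0.0034). Without rat 2 of the MP 12 h group and rat 4 of the MP 24 h group, the farthest from the median in Il1r2, r was 0.55. Within the 19 MP-series rats r was 0.71 and within the 19 AP-series rats 0.26. Both genes were read on the same array, so that an array's own scale enters both values.

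Across the 10 group means Hk3, a hexokinase, had the pattern most like that of Il1r2 among 3498 named probes, with r = 0.990. It was followed by Ltb4r, a leukotriene B4 receptor (0.982), Oas1a, an oligoadenylate synthetase (0.981), Dgat2, a triglyceride synthesis enzyme (0.979), and Oas1k (0.978). Il1rap stood at place 53 (0.940). For Il1rap the most alike were Ampd3, an AMP deaminase (0.989), Mmp8, the neutrophil collagenase (0.985), Ccr1, a chemokine receptor (0.985), Xbp1, a transcription factor (0.982), and Zfand3 (0.981). Il1r2 stood at place 112 in that order. The groups of each chemical share a vehicle group and all values share their arrays. Over the 38 single arrays Dgat2 was first for Il1r2 (0.970) and Nqo1, a quinone reductase, for Il1rap (0.963), while Zfand3 fell to place 113.

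Of 10 listed ligands and antagonists 3 had a named probe and 2 were tested. The ligand Il1b was called at 12 h and 24 h after AP and at 12 h after MP. Il1b had means of 19.23 ± 0.07 at 12 h and 18.59 ± 0.51 at 24 h after AP, against 17.56 ± 0.40 in AP vehicle rats (SD, n = 4 each). The rises were 1.67 ± 0.292 (limma adjusted p = 2.18e-05) and 1.03 (limma adjusted p = 0.00506), and the rise at 12 h after MP was 0.94 (limma adjusted p = 0.0403). At 4 h after AP, when Il1r2 had risen, Il1b differed by -0.41 ± 0.292 (limma adjusted p = 0.426). Il18, a related cytokine, rose by 1.13 at 24 h after AP (limma adjusted p = 0.00258). Il1a reached the detection limit on 0 of 38 arrays and was not tested.

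None of 8 listed receptors of the family was tested. The signalling receptor Il1r1 reached the detection limit on 2 of 38 arrays. Il1rl2, the interleukin 36 receptor, reached the limit on 1 array, Il18rap, the interleukin 18 co-receptor, on 5, and Il1rapl1 on 2, and the other four had no named probe.

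Of 8 listed decoy or binding proteins of other cytokines, 3 were tested and 2 rose at 12 h and at 24 h after AP. Of all tested probes 13.8% and 14.7% rose at these times. Il18bp, which binds interleukin 18, rose by 1.26 (limma adjusted p = 0.000398) and 2.0 (limma adjusted p = 3.74e-07). Il22ra2, the soluble interleukin 22 binding protein, rose by 3.25 (limma adjusted p = 3.75e-07) and 1.74 (limma adjusted p = 0.00193). After MP 0 of 3 passed at 12 h, where 3.12% of all tested probes rose and 4.92% fell. The remaining one, Tnfrsf11b, a decoy for the bone cytokine RANKL, was not above the detection limit on any array of 7 groups.

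Of 32 listed signalling genes 9 were tested, and at 12 h after AP 2 rose and 1 fell, where 13.8% of all tested probes rose and 20.5% fell, so that the share called is near that of the array. The adaptor Myd88 rose by 1.91 (limma adjusted p = 2.09e-10), the kinase Mapk14 (p38) rose by 0.55 and the p38 activator Map2k6 fell by 1.42. At 24 h 3 rose and 3 fell, with Myd88 up by 1.69, where 14.7% of all tested probes rose and 20.9% fell. After MP 3 rose and 0 fell at 12 h, with Nfkbib, an inhibitor of NF-kB, up by 0.53 (limma adjusted p = 0.0111) and Myd88 by 0.65 (limma adjusted p = 0.0168). There 3.12% of all tested probes rose and 4.92% fell. The median change of the 9 was 0.32 at 12 h after AP, 0.36 at 24 h after AP and 0.08 at 12 h after MP, beside -0.031, -0.064 and -0.077 over all tested probes.

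Of 14 genes for interleukin 1 processing and receptor shedding 5 were tested. At 4, 12 and 24 h after AP 0, 1 and 2 of the 5 rose, and 1 fell at each time. Of all tested probes 2.9%, 13.8% and 14.7% rose and 3.68%, 20.5% and 20.9% fell at these times, so that the share called at 12 h is near that of the array. Adam17, a protease known to shed Il1r2 from the cell surface, rose by 1.32 at 12 h (limma adjusted p = 5.23e-07) and by 1.48 at 24 h after AP (limma adjusted p = 5.85e-08). Pycard, the inflammasome adaptor, fell by 0.63 at 4 h, by 0.90 at 12 h and by 1.31 at 24 h after AP (largest limma adjusted p 0.0413). After MP 0 rose and 2 fell at 12 h, Casp1, which cleaves the precursor of Il1b, by 0.76, and Casp4 by 0.73 on 1 of its 2 probes (the other had -0.60, limma adjusted p = 0.0949). Of all tested probes 3.12% rose and 4.92% fell at that time. At 24 h after AP both Casp4 probes were higher, by 0.90 (limma adjusted p = 0.00171) and 0.76 (limma adjusted p = 0.00144).

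Of 17 genes known to be induced by interleukin 1, 7 were tested, and 2 rose at 4 h, 4 at 12 h (1 fell) and 6 at 24 h after AP. Of all tested probes 2.9%, 13.8% and 14.7% rose and 3.68%, 20.5% and 20.9% fell at these times. Socs3, a feedback inhibitor of cytokine signalling, rose by 1.69, 4.39 and 4.42 at these times, and Nos2, the inducible nitric oxide synthase, by 1.20, 3.31 and 3.54 (largest limma adjusted p 0.0147). Cxcl2 and Lcn2 were also called at 12 h and 24 h but were under the detection limit on every AP vehicle array. At 12 h after MP 0 of the 7 passed. There 3.12% of all tested probes rose and 4.92% fell, so that 0 of 7 is near the share of the array.

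**Figure D4:**
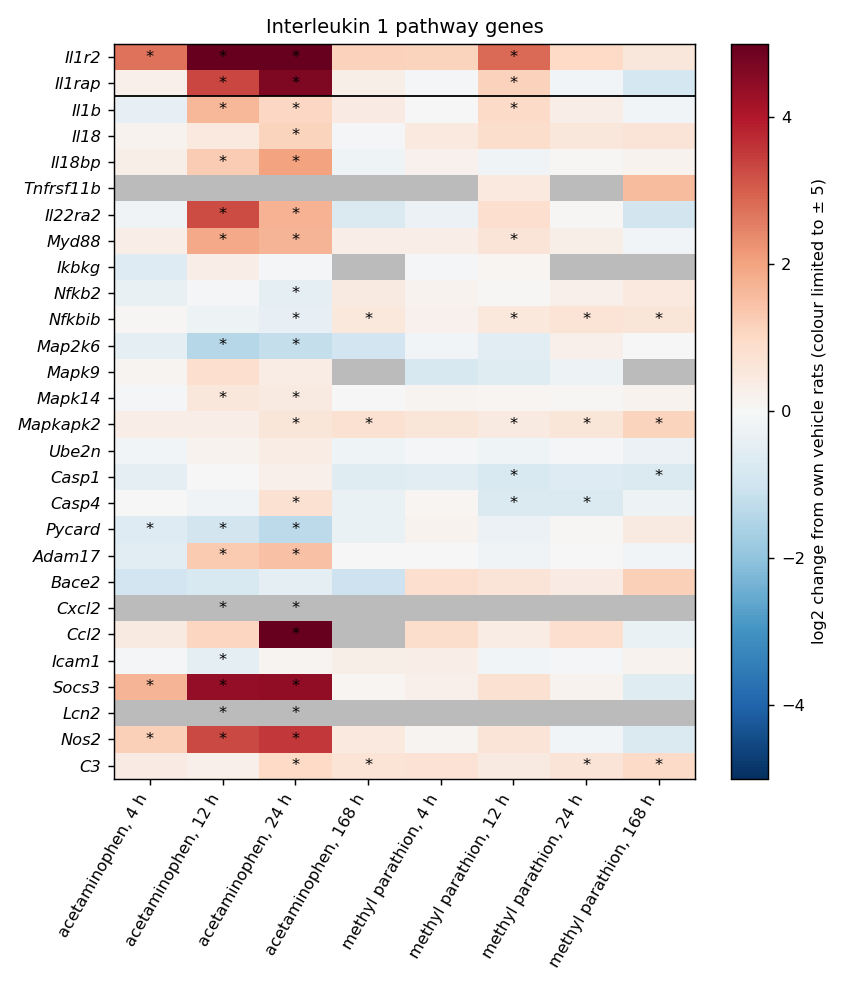
Log2 change from the vehicle rats of the same chemical for Il1r2, Il1rap (above the line) and the tested genes of the interleukin 1 lists, by chemical and time. Red is higher and blue lower in the dosed rats, stars mark a limma adjusted p under 0.05, and grey fields have at least 1 of the 2 groups under the detection limit on every array. Il1r2 is the gene of the upper pair with a star at 4 h after AP, and both have stars at 12 h and 24 h after AP and at 12 h after MP.

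Markers of blood cell types moved at the same times as the 2 receptor genes. In bulk RNA, more or fewer cells of a type and more or less RNA per cell cannot be told apart. Of 12 listed neutrophil markers 7 were tested, and 6 rose at both 12 h and 24 h after AP, among them Mmp8, up by 4.14 and 4.54, the chemokine receptor Cxcr2, up by 3.88 and 3.95, and Mmp9, a granule gelatinase, up by 3.10 and 4.85. The one that did not pass was Cxcr1, another chemokine receptor, at 0.35 and 0.28. Cxcr1 reached the detection limit on only 1 of 4 arrays in each of the AP vehicle, 12 h and 24 h groups. Of all tested probes 13.8% rose at 12 h and 14.7% at 24 h after AP. The mean of the 7 relative to the AP vehicle mean was 2.03 to 2.36 at 12 h and 2.47 to 2.71 at 24 h in the AP rats, against -0.27 to 0.27 in AP vehicle rats.

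At 4 h after AP 0 of the 7 neutrophil markers passed, and their mean was -0.25 to 0.81 in the AP rats. There 2.9% of all tested probes rose and 3.68% fell, so that 0 of 7 is near the share of the array. At 168 h after AP 1 of 7 rose, Mmp9 by 1.08, where 3.08% of all tested probes rose. At 12 h after MP, where 3.12% of probes rose, 2 of 7 rose, Mmp9 by 1.14 and S100a8, a calcium-binding protein of neutrophils and monocytes, by 0.86. The neutrophil mean there was 1.26, -0.06, 0.85 and 0.53 in rats 1 to 4, so that rat 2, the low rat in both receptor genes, was also low in these markers. Vehicle rat 4 of the MP series, the high rat in Il1r2, had the highest neutrophil mean of its group, 0.70. At 4 h and 24 h after MP rat 4, the highest in Il1r2, also had the highest neutrophil mean, 0.31 and 0.74. The order differed at 4 h after AP, where the neutrophil mean was 0.66, 0.81, -0.25 and 0.21 in rats 1 to 4. Rat 1, the lowest in Il1r2, there lay above rats 3 and 4. At 12 h after AP the neutrophil mean was 2.36, 2.03, 2.22 and 2.19 in rats 1 to 4. Rat 4, the lowest in Il1r2, there lay above rat 2. At 24 h after AP the neutrophil mean was 2.47, 2.68, 2.66 and 2.71. Rat 1, the lowest in this mean, lay above rats 3 and 4 in Il1r2. The part of neutrophil number in the receptor values was not tested.

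Of 15 listed glucocorticoid-induced genes other than Il1r2, 9 were tested. At 4 h after AP 3 rose and 0 fell: Crispld2, a secreted protein, by 3.17 (limma adjusted p = 0.0175), Fkbp5, a receptor chaperone, by 1.80 (limma adjusted p = 0.00701), and Klf9, a transcription factor, by 0.70 (limma adjusted p = 0.0445). At 12 h after AP 6 rose and 1 fell, at 24 h 6 rose and 2 fell, and Klf9 fell by 0.75 and 1.22. At 12 h after MP 5 rose, with Crispld2 up by 4.25 and Cebpd, a transcription factor, by 1.10. Of all tested probes 2.9%, 13.8% and 14.7% rose at 4, 12 and 24 h after AP and 3.12% at 12 h after MP. The shares that fell were 3.68%, 20.5%, 20.9% and 4.92%. The mean of the 9 was 0.32, 1.36, 0.92 and 1.24 in rats 1 to 4 at 4 h after AP and 1.62, 0.20, 1.40 and 1.35 in rats 1 to 4 at 12 h after MP. In both groups the rat lowest in Il1r2 was the lowest in this mean. In MP vehicle rats and at 4 h and 24 h after MP, rat 4 was the highest in Il1r2. It was also the highest in this mean, at 0.25, 0.92 and 1.03. The order differed where Il1r2 was highest, as it also did for the neutrophil mean. At 12 h after AP the mean was 1.82, 1.99, 1.86 and 1.99 in rats 1 to 4, and rat 4, the lowest in Il1r2, had one of the highest means. The 4 rats of that group spanned 0.29 in Il1r2. At 24 h after AP the mean was 1.55, 1.36, 1.43 and 1.65, and rat 2, the highest in Il1r2, had the lowest mean. The part of glucocorticoids in the receptor values was not tested.

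**Figure D5:**
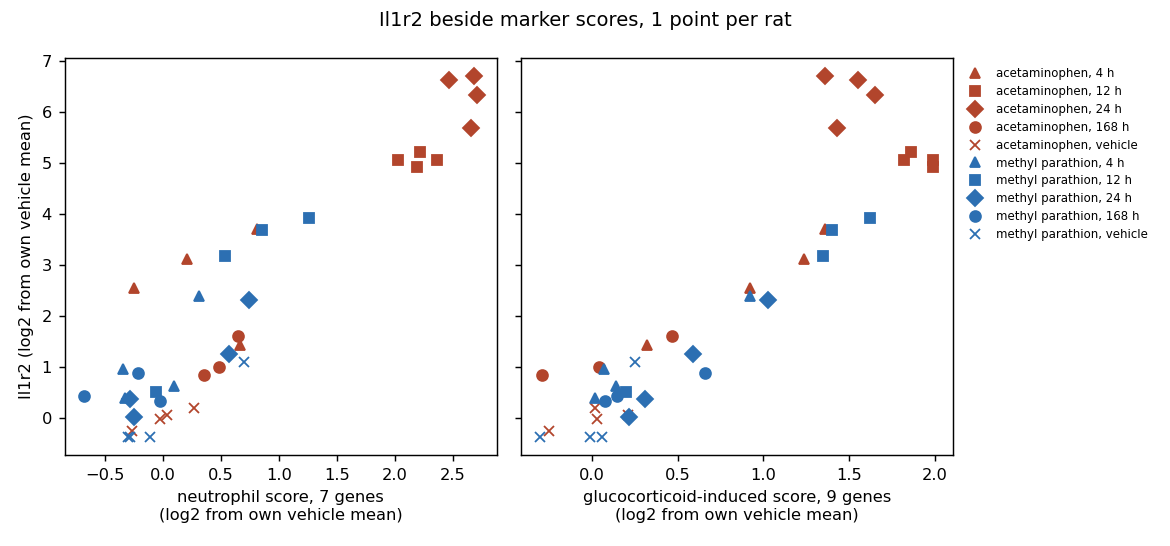
Il1r2 in every rat against the mean of 7 neutrophil markers (left) and of 9 glucocorticoid-induced genes (right), all as log2 differences from the vehicle mean of the same chemical. Colours show the chemical and symbols the time. The AP 4 h rats reach an Il1r2 difference above 1 with neutrophil means of -0.25 to 0.81, and the AP 12 h and 24 h rats lie at neutrophil means of 2.03 to 2.71.

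Other cell types moved too. T cell markers fell at 4 h (5 of 6 tested), at 12 h and at 24 h after AP (6 of 6 at both) and at 12 h after MP (6 of 6). Both tested B cell markers fell at 4, 12 and 24 h after AP, Cd79b, a part of the B cell receptor, by 2.44, 1.92 and 2.48 and Ebf1, a transcription factor, by 2.98, 1.47 and 2.60. Ebf1 reached the detection limit on only 1 of 4 arrays at 4 h and 2 of 4 at 24 h, so that the size of these 2 falls is uncertain. Both tested platelet markers rose at 4 h after AP, Ppbp, a platelet chemokine, by 1.60 and Gp5, a surface glycoprotein, by 1.93, and 2 of 4 erythroid markers rose. At 24 h after AP 5 of 5 natural killer markers fell. Of all tested probes 3.68%, 20.5% and 20.9% fell at 4, 12 and 24 h after AP and 4.92% at 12 h after MP. The share that rose at 4 h after AP was 2.9%.

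Rat 1 of the AP 4 h group, the lowest of its group in Il1r2, stood apart in these markers. The mean of the 2 B cell markers relative to the AP vehicle mean was -0.40 in rat 1 and -3.58 to -3.43 in the other 4 h rats, against -0.23 to 0.37 in AP vehicle rats. Ebf1, 1 of these 2 markers, reached the detection limit on only 1 of the 4 arrays at 4 h. The mean of the 2 platelet markers was 0.34 in rat 1 and 2.46, 2.59 and 1.68 in rats 2 to 4, against -0.83 to 1.05 in AP vehicle rats.

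Monocyte markers went both ways, with 3 of 5 up and 1 down at 12 h after AP, 2 up and 2 down at 24 h after AP and 1 up and 1 down at 12 h after MP. Of all tested probes 13.8%, 14.7% and 3.12% rose and 20.5%, 20.9% and 4.92% fell at these times. Cd14, the lipopolysaccharide co-receptor, was up by 1.41, 1.98 and 2.25 at 4, 12 and 24 h after AP and by 1.61 at 12 h after MP. Adgre1, a surface receptor of monocytes and macrophages, fell by 2.10 and 2.61 at 12 and 24 h after AP and by 0.98 at 12 h after MP, and Cx3cr1, a chemokine receptor, fell by 1.90 at 24 h after AP. Cx3cr1 reached the detection limit on only 1 of 4 arrays at 24 h after AP and on 3 of 4 in AP vehicle rats, so that the size of its fall is uncertain. Of 5 tested hepatocyte markers 4 rose at 24 h after AP, where Tf, transferrin, rose by 4.08. Their mean was 2.54 to 3.23 in these rats, against -0.21 to 0.19 in AP vehicle rats, in which Alb, Ttr and Serpina1 were under the detection limit on every array. The part of these cell types in the receptor values was not tested.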

How the data were processed

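Leukocyte RNA of 38 rats was measured on 1-colour Applied Biosystems arrays, 1 per rat, from digoxygenin-labelled cRNA. The deposited array files hold a linear intensity per probe, a signal-to-noise score and whole-number spot flags, per the file headers. The authors' series table holds log2 values, equal to the log2 of the quantile-normalized intensity within 5e-09. Scan dates, slides and the array's genome build are not given in the sources used here. Probe genes came from the platform annotation.

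Low values were set to the 5th percentile (log2 6.404), and 0.9598% of values, from spots with flags from 5000 upward, were left out. A probe entered the tests if most arrays of some group had a signal-to-noise ratio of 3 or more (12805 probes). All 10 groups formed the factor of 1 linear model (limma 3.58.1, R 4.3.3) with a variance trend and 28 residual plus 6.31 prior degrees of freedom. Tests were two-sided, with Benjamini-Hochberg adjustment over all tested probes and a threshold of 0.05. The fit was tested on simulated data. Within-array differences were tested by exact permutation.

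The genes and lists were chosen with earlier results of these data known. Named pathway genes are each tested ligand, receptor and decoy, those of other lists that have the lowest p or move most against the rest, the 2 leading cell type markers, and the 5 most alike genes. Some were added after their values were seen: Alb, Ttr and Serpina1 for their low signal, Cd14, Adgre1, Cx3cr1, Cxcr1 and Cxcr2 at each time, and Casp4 after AP. Alternatives covered normalization, floor, filter, flags, array weights, variance prior, samples fitted, the test, replicate block, vehicle rats used and each rat left out.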

Additional observations from a re-analysis of the deposited data

Results flagged for a closer look

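Il1r2 in the MP vehicle rats was noted because 1 rat stood far from the rest: rat 4 was at 13.99 and the others at 12.52 to 12.53, a gap of 0.990 of the group's whole range. The limit for noting a gap is one that chance passes in about 1 in 20 groups, and the chance of this gap itself was not computed. The rise of Il1r2 at 12 h after MP was 3.20 without this rat and 2.83 with it.

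Both genes were noted because their changes after AP and after MP differed in a direct test. The change after AP exceeded that after MP by 2.23 at 12 h and 5.34 at 24 h in Il1r2, and by 2.20 at 12 h and 4.81 at 24 h in Il1rap (limma adjusted p 0.0461, 2.44e-06, 0.00603 and 3.62e-08).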

How the results depend on the processing

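The number of arrays limits the precision, with 3 or 4 rats a group, and Il1rap lay near the detection limit outside its peaks. Vehicle rats of 1 hour served every time, so that hour and treatment cannot be told apart at 4, 12 and 168 h. Among the called changes from vehicle and differences between chemicals, those of both genes at 12 h and 24 h after AP, the AP minus MP differences of both at 24 h and that of Il1rap at 12 h kept their call under each alternative run, without adjustment in the exact test. The causes of the changes below were not tested.

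Under median centring Il1r2 AP minus MP at 12 h was 2.37 (limma adjusted p = 0.0647), Il1rap at 12 h after MP 0.85 and Il1rap at 168 h after AP -0.08, while the median of all probes lay at 0.179, -0.252 and -0.378. Relative to that median Il1rap at 168 h stayed higher. With no detection filter these 12 h values were 2.23 (limma adjusted p = 0.0763) and 1.15 (0.084), and with a constant variance prior 2.23 (0.0657) and 1.15 (0.0593), all past the threshold no longer. Array weights gave 1.26 for Il1r2 at 4 h after MP and 1.79 for its difference between chemicals at 4 h, both now called (limma adjusted p = 0.0419 and 0.0364), and 0.34 and -0.06 for Il1rap, turned in sign and not called. With only the groups compared, Il1r2 was 2.71 at 4 h after AP and 2.83 at 12 h after MP and Il1rap 1.15 at 12 h after MP, none called (limma adjusted p = 0.0794, 0.0635 and 0.136), and Il1r2 was 1.15 at 168 h after AP, now called (0.01). By the exact permutation test, unadjusted, Il1r2 at 168 h after AP (1.15) had p = 0.0286, and Il1r2 (2.83) and Il1rap (1.15) at 12 h after MP had p = 0.0571 and 0.0857. Adjusted over 16 tests the smallest exact p was 0.0762. On signals without normalization the within-array excess after MP was 1.24 at 4 h and 1.24 at 24 h (exact permutation p = 0.0286).

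Leaving out 1 rat at a time gave 1.46 to 2.59 for Il1r2 AP minus MP at 12 h and, for Il1rap, 0.87 to 1.55 at 12 h, -0.27 to 0.17 at 4 h, -0.35 to 0.12 at 24 h and -1.34 to -0.60 at 168 h after MP. The vehicle groups differed by -0.32 to 0.17 in Il1r2 and -0.25 to 0.17 in Il1rap, turning positive without MP vehicle rat 4 in both and, for Il1rap, to 0.05 without AP vehicle rat 2 and 0.02 without MP vehicle rat 1. Il1rap after MP turned positive at 4 h without MP vehicle rat 1 (0.02) or 4 (0.17) or 4 h rat 1 (0.14) or 3 (0.10), and at 24 h without vehicle rat 4 (0.08) or 24 h rat 3 (0.12). The within-array excess was 2.18 to 2.87, 1.60 to 1.85, 1.48 to 1.77 and 0.60 to 1.14 at 4, 12, 24 and 168 h after AP and 0.93 to 1.44, 1.37 to 2.05, 0.70 to 1.38 and 1.21 to 1.74 after MP. Both 168 h calls were lost in 7 of 7 leave-outs, where no exact permutation adjusted p can be under 0.0667. The other calls were each lost in 4 of 8. At 12 h and 24 h after AP no rats overlapped, and the adjustment gave these losses (adjusted p up to 0.0571).

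Replicate numbers did not pair the rats: deviations of same-numbered rats correlated at -0.4 to 0.21. With the replicate block Il1r2 was 2.71 at 4 h after AP (limma adjusted p = 0.0018) and Il1rap 1.15 at 12 h after MP (0.0496), and the block changed no call of either gene. Counts of called probes moved more than the 2 genes did. At 4 h after AP the count was 842, but 201 under median centring, 540 with no detection filter, 2365 with array weights and 0 with only the groups compared. At 12 h after MP it was 1029, but 323, 659, 4131 and 0 under these, and 2870 with all 8 vehicle rats. Array weights called 562 probes at 4 h after MP, 1111 for the difference between chemicals at 4 h and 1190 between the vehicle groups, where the count was 0. Median centring gave 441 in place of 1463 for the 12 h difference, 2028 in place of 3290 for the 24 h difference, 1536 in place of 2334 at 168 h after MP and 13 in place of 165 for 12 h over 4 h after MP. It also moved the share of calls that were higher to 3.9% in place of 27.7% at 168 h after AP, 20.1% in place of 38.8%, 2.3% in place of 30.5% and 10.9% in place of 49.9% at 12, 24 and 168 h after MP, 96.6% in place of 52.9% and 77.2% in place of 46.2% for the 12 h and 24 h differences, and 71.4% in place of 48.2% for 12 h over 4 h after AP.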
